A study of Homo sapiens with 12 samples.

Results

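Major histocompatibility complex (MHC) class I antigen presentation was followed through 9 genes: the heavy chain genes HLA-B, HLA-C, HLA-E and HLA-F, the light chain gene B2M, the peptide transporter genes TAP1 and TAP2, the loading factor TAPBP (tapasin) and the transcriptional activator NLRC5. They were taken by name from a table of gene counts, 9 of 36137 listed genes, and all 9 were among the 18468 genes with enough counts to be tested. The cells were LNCaP, an established androgen-sensitive prostate cancer line that came from a lymph node metastasis. Every culture was transfected for 48 h, kept without serum for 12 h and then treated for 24 h. The siRNA was either non-specific or directed against PXN, the gene of the focal adhesion adaptor paxillin, and the treatment was either ethanol vehicle or 2.5 nM dihydrotestosterone (DHT), a potent natural androgen. This gave 4 groups of 3 libraries: non-specific siRNA with vehicle, non-specific siRNA with DHT, PXN siRNA with vehicle and PXN siRNA with DHT. No untransfected cells entered the comparisons, so the non-specific siRNA is the reference throughout.

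Class I molecules carry short peptides from inside the cell to its surface, where CD8+ T cells read them and natural killer cells read their presence. Proteasomes cut proteins into peptides, the TAP1 and TAP2 proteins pump these into the endoplasmic reticulum, tapasin bridges the pump to an empty heavy chain bound to B2M, and the loaded complex leaves for the surface. Many genes of this pathway, immunoproteasome genes among them, are known targets of interferon signalling and of NLRC5. NLRC5 acts at a promoter module of X and Y boxes held by RFX, CREB/ATF and NF-Y proteins. Loss of class I expression is a known feature of many prostate cancers.

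Library totals lay between 34321000 and 38633456 counts, so that 1 CPM (a count scaled to its library's size) stood for 33.65 to 38.2 counts. PXN was read first as a check of the siRNA labels. It measured 112, 106 and 108 CPM with non-specific siRNA and vehicle, 113, 99.6 and 104 CPM with non-specific siRNA and DHT, 15.2, 21.2 and 14.9 CPM with PXN siRNA and vehicle, and 19.9, 18.0 and 16.6 CPM with PXN siRNA and DHT. All 6 libraries of PXN siRNA were thus below all 6 of non-specific siRNA. The summed level of 10 luminal prostate markers, among them KLK3, KRT8 and EPCAM, was 3611 to 7724 CPM in the 12 libraries, and that of the 6 leukocyte markers analysed here was 0.351 to 1.33 CPM. PXN siRNA moved a large part of the transcriptome, and any member has to be read against that. Under vehicle 23.9% of all tested genes were called higher and 26.3% lower with it, and under DHT 25.0% were called higher and 26.7% lower, by edgeR's quasi-likelihood test (adjusted p below 0.05, Benjamini-Hochberg). Whether the 3 replicates of a group were grown apart is not in the labels. The p-values here therefore speak of the spread between libraries within groups, estimated over all 4 groups together. That spread can be technical. In bulk RNA, fewer cells expressing a gene and less RNA per cell cannot be told apart.

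The promoters of 7 of the 9 genes were read from RefSeq (GRCh38.p14), and 6 are shown: HLA-B and HLA-C, close in sequence but different in fold, TAP1 and TAP2, partners that moved apart, and B2M and TAPBP, both with ISREs, of which only the former rose. Each line gives the 200 bases before the annotated start site, 5′ to 3′ on the gene's strand, with matches to any of 5 searched motifs in capitals. The motifs, searched on both strands, were the interferon-stimulated response element (ISRE, GAAANNGAAA), the gamma-activated site (GAS, TTCNNNGAA), the X2 box core TGACG, the Y box core CCAAT and the NF-kB consensus. The windows are chr6:31357180-31357379 (minus strand) for HLA-B, chr6:31272093-31272292 (minus strand) for HLA-C, chr15:44711317-44711516 (plus strand) for B2M, chr6:32853705-32853904 (minus strand) for TAP1, chr6:32838740-32838939 (minus strand) for TAP2 and chr6:33314079-33314278 (minus strand) for TAPBP.
HLA-B: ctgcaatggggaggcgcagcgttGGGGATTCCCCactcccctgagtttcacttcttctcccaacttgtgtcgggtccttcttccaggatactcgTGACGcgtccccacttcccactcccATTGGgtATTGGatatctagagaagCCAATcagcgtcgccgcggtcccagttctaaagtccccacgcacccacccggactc
HLA-C: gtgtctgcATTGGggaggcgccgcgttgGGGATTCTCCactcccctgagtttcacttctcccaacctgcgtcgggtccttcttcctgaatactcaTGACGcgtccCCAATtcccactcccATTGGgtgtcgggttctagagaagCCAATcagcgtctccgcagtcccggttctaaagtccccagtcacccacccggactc
B2M: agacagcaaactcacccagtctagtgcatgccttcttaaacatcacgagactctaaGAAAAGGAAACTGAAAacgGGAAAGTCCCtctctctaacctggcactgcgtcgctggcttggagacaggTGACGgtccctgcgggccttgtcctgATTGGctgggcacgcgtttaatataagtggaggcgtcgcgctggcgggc
TAP1: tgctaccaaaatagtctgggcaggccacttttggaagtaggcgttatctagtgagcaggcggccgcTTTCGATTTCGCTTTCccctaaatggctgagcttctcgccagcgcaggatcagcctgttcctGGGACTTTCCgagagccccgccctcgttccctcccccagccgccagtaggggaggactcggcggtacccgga
TAP2: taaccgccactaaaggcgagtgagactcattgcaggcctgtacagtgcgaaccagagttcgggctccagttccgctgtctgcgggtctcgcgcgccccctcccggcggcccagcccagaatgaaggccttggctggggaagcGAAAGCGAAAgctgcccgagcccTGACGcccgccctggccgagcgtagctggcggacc
TAPBP: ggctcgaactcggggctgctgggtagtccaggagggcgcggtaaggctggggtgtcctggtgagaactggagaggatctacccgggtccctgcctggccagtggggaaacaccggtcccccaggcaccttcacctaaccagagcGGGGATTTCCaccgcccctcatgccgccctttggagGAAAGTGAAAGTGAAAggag

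Over the longer windows of 250 bases before to 50 bases after the start, HLA-B and HLA-C each held 1 X2 core with an NF-kB match upstream of it (in HLA-B 2 overlapping ones) and 3 Y box cores downstream of it, and neither held the ISRE as spelled here. HLA-C held 1 more Y box core farther upstream. Their 200-base stretches were 87.7% identical in a global alignment, and HLA-F was 80.8% identical to HLA-B and 80.2% to HLA-C. HLA-F held 1 ISRE and 2 Y box cores and no X2 core. B2M held a pair of overlapping ISREs, an NF-kB match, 1 X2 core and 1 Y box core. TAP1 held a pair of overlapping ISREs, 2 NF-kB matches and 1 Y box core, and its start site lies 488 bases from that of PSMB9, an immunoproteasome gene on the opposite strand. TAP2 held 1 ISRE and 1 X2 core, and TAPBP a pair of overlapping ISREs and 1 NF-kB match. Of all 35116 promoters in the same reference table, 3.57% held an ISRE, 7.66% a GAS, 24.6% an X2 core, 34.6% a Y box core and 11.3% an NF-kB match. TAP1 has 2 entries in the table, and the one described here and plotted is that of the upstream start site; the other, chr6:32852712-32853011, held 1 GAS and no other match. No GAS stood in the described windows of the 7 genes, and no match of one motif overlapped a match of another. ISRE matches thus stood both in HLA-F, B2M and TAP1, whose counts rose with PXN siRNA, and in TAP2 and TAPBP, which did not rise. HLA-B and HLA-C, with no ISRE as spelled here, rose as well. A match describes letters in these windows and says nothing of binding. The tables hold no entry for HLA-E and NLRC5.

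**Figure D1:**
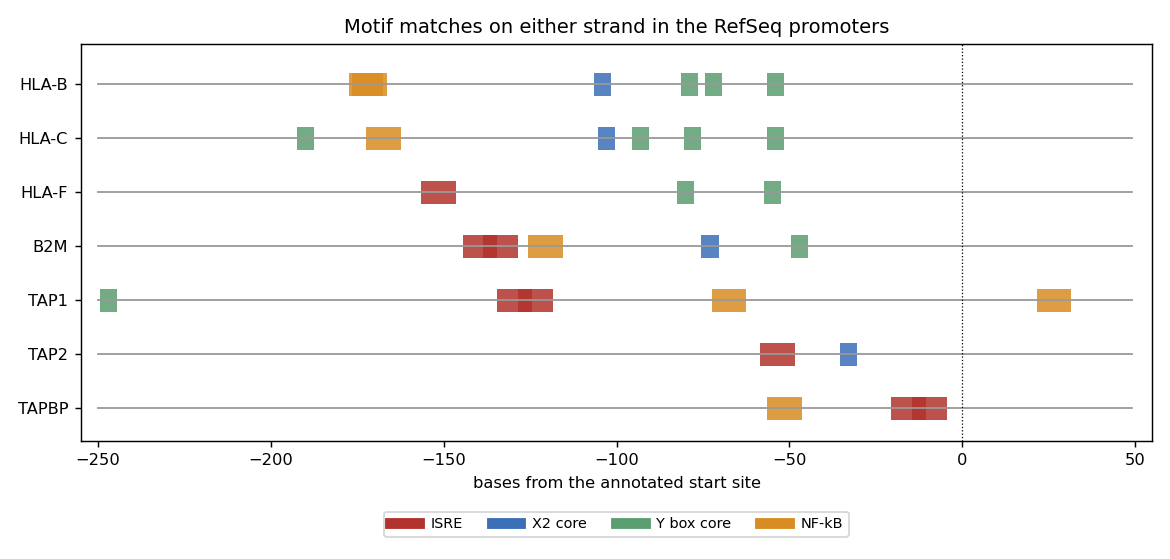
Position of each motif match, in bases from the annotated start site (0), in the promoters of 7 members (for TAP1 that of the upstream start site), from 250 bases before to 49 after it; colours give the motif, and overlapping boxes are overlapping matches. ISRE matches appear in HLA-F, B2M, TAP1, TAP2 and TAPBP, and X2 cores in HLA-B, HLA-C, B2M and TAP2.

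With PXN siRNA, 7 of the 9 genes were higher and none lower under vehicle, where 23.9% of all tested genes were called higher and 26.3% lower. Under DHT 7 of the 9 were higher and 1, TAP2, was lower, where 25.0% of all tested genes were called higher and 26.7% lower. The median log2 fold change of the 9 was 1.06 under vehicle and 0.88 under DHT, beside 0.02 and 0.03 over all tested genes. Both counts were the same without the 4 libraries numbered 1, which stood above their group means for most of the 9 genes. With upper-quartile scaling the median of all tested genes moved to 0.12 under vehicle and 0.13 under DHT, and the share of calls that were higher moved from 47.7% to 60.2% and from 48.3% to 60.7%. The same 7 genes are read below, by their place in the pathway.

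**Figure D2:**
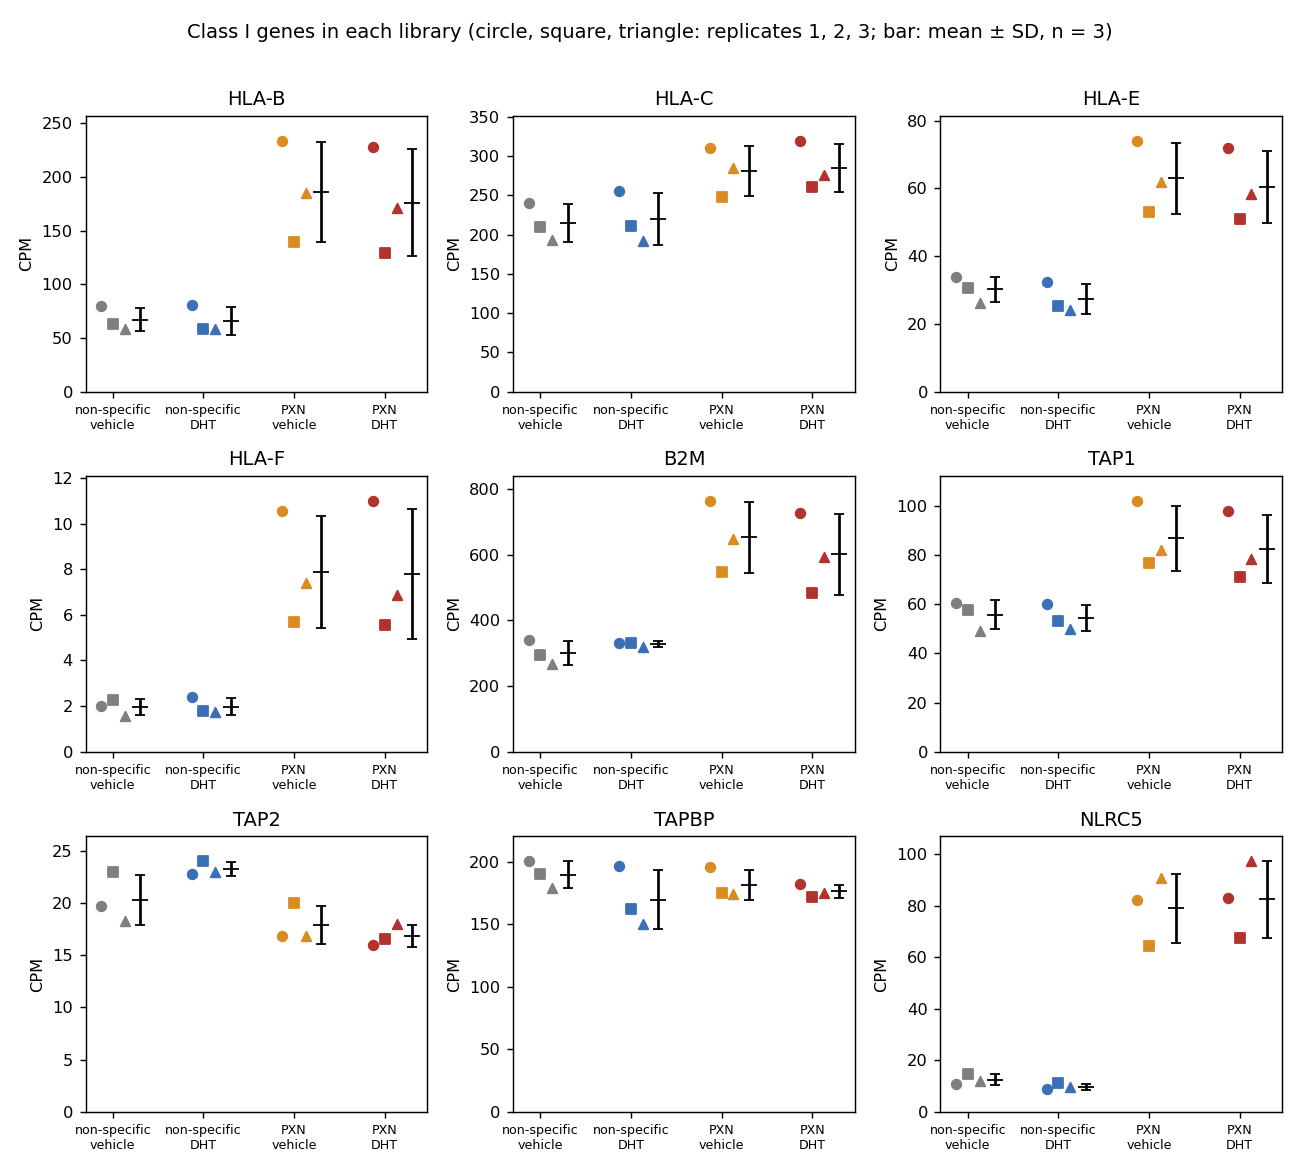
CPM of the 9 genes in each of the 12 libraries, by group, on linear axes from 0; circles, squares and triangles are replicates 1, 2 and 3, and the black bar is the mean ± SD of 3 libraries. NLRC5 lies between 8.65 and 14.8 CPM with non-specific siRNA and between 64.2 and 97.2 CPM with PXN siRNA, whereas TAPBP overlaps in all groups.

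Among the heavy chains, HLA-B, HLA-E and HLA-F rose and HLA-C rose least. HLA-B (chromosome 6, 31269491 to 31357188, minus strand), a highly polymorphic classical heavy chain, measured 79.4, 63.4 and 58.6 CPM with non-specific siRNA and vehicle and 233, 140 and 185 CPM with PXN siRNA and vehicle. Under DHT it measured 81.0, 58.2 and 58.1 CPM with non-specific siRNA and 228, 129 and 171 CPM with PXN siRNA. The lowest library of PXN siRNA was above the highest of non-specific siRNA under both treatments. The log2 fold change was 1.47 ± 0.21 (SE) under vehicle, a 2.77-fold rise (adjusted p = 4.92e-05, edgeR's quasi-likelihood test), and 1.42 ± 0.21 under DHT (adjusted p = 6.25e-05).

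HLA-C (chromosome 6, 31268749 to 31272130, minus strand), a classical heavy chain that is also a main ligand of inhibitory receptors on natural killer cells, was the highest of the 4 heavy chains before and after PXN siRNA. It measured 240.2, 210.0 and 193 CPM with non-specific siRNA and vehicle and 311, 247 and 285 CPM with PXN siRNA and vehicle, and 256, 211 and 191 CPM against 319, 260.4 and 276 CPM under DHT. The groups did not overlap, but the gap was narrow: 240.2 against 247 CPM under vehicle. Its log2 fold change was 0.39 ± 0.12 under vehicle (adjusted p = 0.012, edgeR) and 0.38 ± 0.12 under DHT (adjusted p = 0.0144). The call for HLA-C under vehicle was lost without replicate 3 of non-specific siRNA (0.31, adjusted p = 0.0794, edgeR) or without replicate 1 of PXN siRNA (0.29, adjusted p = 0.0795). With the replicate numbers entered as a block it was kept (0.39, adjusted p = 5.1e-05, edgeR). HLA-C was then higher with PXN siRNA in 3 of 3 same-numbered pairs under vehicle. Under DHT the HLA-C call was lost without replicate 2 or 3 of non-specific siRNA (0.33, adjusted p = 0.0669, and 0.27, adjusted p = 0.106, edgeR) or without replicate 1 of PXN siRNA (0.27, adjusted p = 0.101).

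HLA-E (chromosome 6, 30489467 to 30494205, plus strand) presents leader peptides of other class I chains to the NKG2A receptor of natural killer cells. It measured 33.8, 30.5 and 26.2 CPM with non-specific siRNA and vehicle and 74.0, 53.1 and 62.0 CPM with PXN siRNA and vehicle, with no overlap. Its log2 fold change was 1.06 ± 0.15 under vehicle (adjusted p = 3.72e-05, edgeR) and 1.15 ± 0.15 under DHT (adjusted p = 1.9e-05). HLA-F (chromosome 6, 29722775 to 29738528, plus strand), a non-classical heavy chain, was the lowest of the 4 and had the largest fold. It measured 2.01, 2.27 and 1.58 CPM against 10.5, 5.67 and 7.39 CPM under vehicle, which were 55 to 84 counts against 211 to 387 counts. The log2 fold change was 2.01 ± 0.28 under vehicle, a 4.01-fold rise (adjusted p = 3.38e-05, edgeR), and 1.98 ± 0.28 under DHT (adjusted p = 3.62e-05). Under DHT HLA-F measured 2.41, 1.77 and 1.75 CPM against 11.0, 5.54 and 6.87 CPM, again with no overlap, and its widest spread was within PXN siRNA. In the GENCODE 29 annotation the span of HLA-B covers most of HLA-C, and heavy chain genes are near-identical in places. The sources used here do not give how the deposited counts treated reads shared between them, so the split between heavy chains is less certain than their rise. HLA-F is also overlapped by the antisense gene HLA-F-AS1, which held 813 counts over the 12 libraries.

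B2M (chromosome 15, 44711487 to 44718877, plus strand), the light chain that every class I molecule needs to fold, lies outside the MHC. It measured 339, 294 and 268 CPM with non-specific siRNA and vehicle and 764, 548 and 649 CPM with PXN siRNA and vehicle. Under DHT it measured 333, 332 and 319 CPM with non-specific siRNA and 729, 483 and 595 CPM with PXN siRNA. The groups were far apart under both treatments, and the spread was wider with PXN siRNA. Its log2 fold change was 1.12 ± 0.14 under vehicle, a 2.18-fold rise (adjusted p = 1.36e-05, edgeR), and 0.88 ± 0.14 under DHT, a 1.84-fold rise (adjusted p = 0.000108).

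Because the heavy chains rose by different folds, their proportions changed. Per kilobase of the longest principal transcript, HLA-B made up 22.1% ± 0.887 (SD, n = 3) of the summed level of the 4 heavy chains with non-specific siRNA and vehicle and 35.8% ± 3.02 with PXN siRNA and vehicle. HLA-C made up 71.4% ± 0.774 and 55.4% ± 3.18 of it. Under DHT the share of HLA-B was 21.5% ± 1.16 with non-specific siRNA and 34.3% ± 3.85 with PXN siRNA. No library of PXN siRNA overlapped a library of non-specific siRNA in these shares, but an exact permutation test of 3 against 3 libraries cannot give a p under 0.10, so none is given. The summed level of the 4 heavy chains was 196 ± 24.1 CPM per kilobase with non-specific siRNA and vehicle and 332 ± 56.4 with PXN siRNA and vehicle. The ratio of B2M to that sum was 0.901 ± 0.00324 and 1.15 ± 0.0120 in the same groups. Under DHT the ratio of B2M to that sum was 0.990 ± 0.133 with non-specific siRNA and 1.08 ± 0.0423 with PXN siRNA, which is within the spread of the former. These proportions depend on the length used: per kilobase of all annotated exons, the HLA-B share was 18.6% and 30.8% under vehicle and 18.1% and 29.5% under DHT, and the ratio of B2M to heavy chains was 0.419 and 0.548 under vehicle and 0.461 and 0.510 under DHT.

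**Figure D3:**
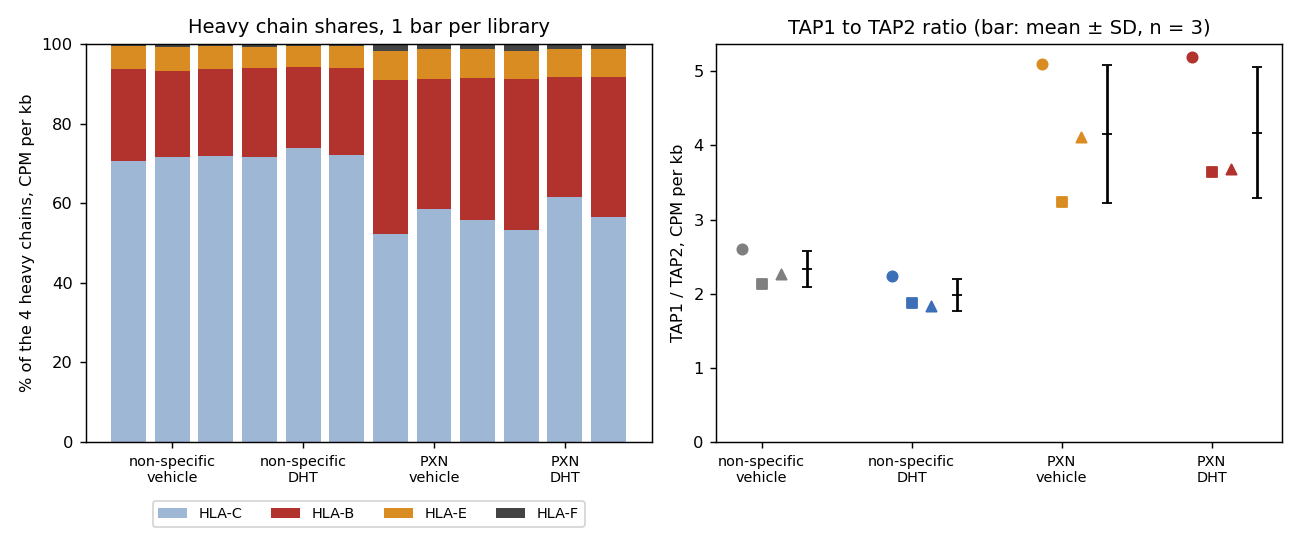
Left, share of HLA-C, HLA-B, HLA-E and HLA-F in the summed CPM per kilobase of these 4 heavy chains, 1 bar per library; right, ratio of TAP1 to TAP2 in CPM per kilobase, 1 point per library (circle, square and triangle are replicates 1, 2 and 3) with mean ± SD of 3. The HLA-B share averages 22.1% and 21.5% with non-specific siRNA and 35.8% and 34.3% with PXN siRNA, and the TAP1 to TAP2 ratio 2.33 and 1.98 against 4.15 and 4.17.

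The partners of the peptide pump went apart. TAP1 (chromosome 6, 32845209 to 32853978, minus strand) measured 60.5, 57.9 and 49.2 CPM with non-specific siRNA and vehicle and 102, 76.8 and 82.1 CPM with PXN siRNA and vehicle. Its log2 fold change was 0.64 ± 0.13 (adjusted p = 0.000746, edgeR), and 0.60 ± 0.13 under DHT (adjusted p = 0.00113), where it measured 60.2, 53.4 and 49.9 CPM against 98.2, 71.2 and 78.4 CPM. The groups did not overlap under either treatment.

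TAP2 (chromosome 6, 32821833 to 32838780, minus strand), the partner that TAP1 needs to form the pump, did not rise. Under vehicle TAP2 measured 19.7, 23.0 and 18.3 CPM with non-specific siRNA and 16.9, 20.0 and 16.8 CPM with PXN siRNA, and these overlapped (log2 fold change -0.18 ± 0.09, adjusted p = 0.124, edgeR). Without replicate 3 of non-specific siRNA the TAP2 difference passed the test (-0.27, adjusted p = 0.0408, edgeR), and likewise without replicate 2 of PXN siRNA (-0.28, adjusted p = 0.0238). With the replicate numbers as a block it did not pass (-0.18, adjusted p = 0.0548, edgeR), though TAP2 was lower in 3 of 3 same-numbered pairs. Under DHT TAP2 measured 22.7, 24.0 and 23.0 CPM with non-specific siRNA and 16.0, 16.5 and 18.0 CPM with PXN siRNA, without overlap. It fell by 0.47 ± 0.09 on the log2 scale (adjusted p = 0.000842, edgeR). The ratio of TAP1 to TAP2 per kilobase was 2.33 ± 0.241 with non-specific siRNA and vehicle and 4.15 ± 0.93 with PXN siRNA and vehicle, and 1.98 ± 0.219 against 4.17 ± 0.886 under DHT. Per kilobase of all annotated exons that ratio was 3.67 and 6.54 under vehicle and 3.12 and 6.58 under DHT.

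TAPBP (chromosome 6, 33299694 to 33314387, minus strand) encodes tapasin. It measured 200.4, 190.2 and 179 CPM with non-specific siRNA and vehicle, 197, 163 and 150.4 CPM with non-specific siRNA and DHT, 196, 175 and 175 CPM with PXN siRNA and vehicle, and 182, 172 and 175 CPM with PXN siRNA and DHT. Values of the 4 groups overlapped. The log2 fold change with PXN siRNA was -0.06 ± 0.09 under vehicle (adjusted p = 0.575, edgeR) and 0.06 ± 0.09 under DHT (adjusted p = 0.62). Across all alternatives it lay between -0.14 and 0.04 under vehicle and between -0.05 and 0.16 under DHT, so its sign was not settled.

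NLRC5 (chromosome 16, 56989485 to 57083531, plus strand), the activator of class I genes, had the largest fold of the 9. It measured 10.7, 14.8 and 11.8 CPM with non-specific siRNA and vehicle and 82.1, 64.2 and 90.5 CPM with PXN siRNA and vehicle. Under DHT it measured 8.65, 11.0 and 9.50 CPM with non-specific siRNA and 82.9, 67.3 and 97.2 CPM with PXN siRNA. Its lowest library of PXN siRNA was more than 4 times its highest of non-specific siRNA. The log2 fold change of NLRC5 was 2.67 ± 0.16 under vehicle, a 6.34-fold rise (adjusted p = 6.19e-08, edgeR), and 3.09 ± 0.16 under DHT, an 8.49-fold rise (adjusted p = 2.57e-08). By log2 fold change it ranked 147 of 18468 tested genes under vehicle and 98 under DHT, beside 353 and 430 for HLA-F and 743 and 919 for HLA-B. Leaving out any 1 library gave 2.54 to 2.79 for NLRC5 under vehicle and 2.93 to 3.19 under DHT.

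**Figure D4:**
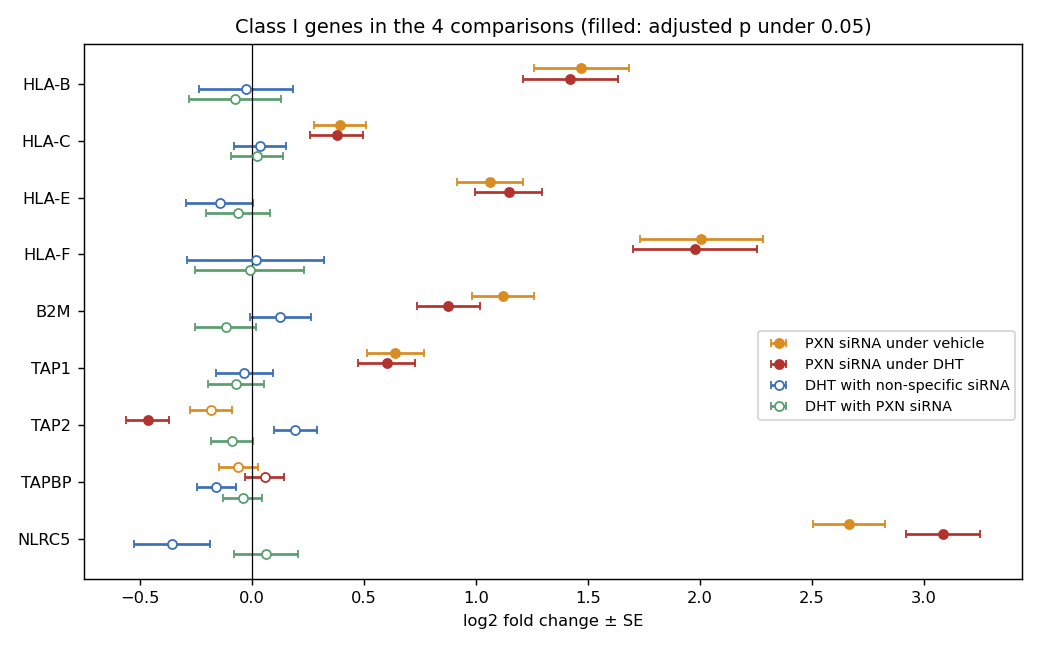
Log2 fold change ± SE of the 9 genes in the 4 pairwise comparisons; filled points passed an adjusted p under 0.05 in edgeR's quasi-likelihood test. The filled points belong to PXN siRNA alone, from HLA-C at 0.39 to NLRC5 at 3.09, with TAP2 at -0.47 under DHT the only one below 0.

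DHT itself moved none of the 9 genes past the test. With non-specific siRNA, 0 of 9 were called, where DHT called 2.72% of all tested genes higher and 2.16% lower by edgeR. With PXN siRNA, 0 of 9 were called, where it called 0.184% higher and 0.0% lower. These shares are not firm: with the replicate-number block DHT called 1140 genes higher and 1096 lower with non-specific siRNA, in place of 502 and 398, and 249 and 97 with PXN siRNA, in place of 34 and 0. Leaving out 1 library gave 290 to 683 higher and 124 to 678 lower with non-specific siRNA, and 10 to 71 higher and 0 to 13 lower with PXN siRNA. The block called 0 of the 9 in both. No member of the 9 reached an unadjusted p under 0.05 in either comparison, and DESeq2's Wald test and limma-voom also called 0. The median log2 fold change of the 9 with DHT was -0.03 with non-specific siRNA and -0.06 with PXN siRNA. The nearest to the threshold were NLRC5, at -0.36 ± 0.17 (adjusted p = 0.307, edgeR), and TAP2, at 0.19 ± 0.09 (adjusted p = 0.323), both with non-specific siRNA. NLRC5 measured 10.7, 14.8 and 11.8 CPM with vehicle and 8.65, 11.0 and 9.50 CPM with DHT there. The groups overlapped, but within the pairs given by the replicate numbers NLRC5 was lower with DHT in 3 of 3. TAPBP and HLA-E were also lower in 3 of 3 pairs, and TAP2 was higher in 3 of 3. With the block their adjusted p was 0.171 for NLRC5 (-0.36), 0.071 for TAPBP (-0.17), 0.241 for HLA-E (-0.15) and 0.119 for TAP2 (0.20), by edgeR. TAPBP with DHT and non-specific siRNA passed only without replicate 1 of the DHT group (-0.28, adjusted p = 0.0406, edgeR). KLK3, an androgen target used as a check of the treatment, rose from 648 to 2234 CPM with DHT and non-specific siRNA (log2 fold change 1.78 ± 0.23, adjusted p = 0.000392, edgeR).

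The effects of PXN siRNA under DHT and under vehicle share no libraries, and their difference was tested as an interaction. It was called for 0 of the 9 genes, where 0.0% of all tested genes were called by edgeR, and for 0 at an unadjusted p under 0.05, by DESeq2's Wald test or by limma-voom. The largest differences were 0.42 ± 0.22 for NLRC5 (unadjusted p = 0.078, edgeR) and -0.28 ± 0.13 for TAP2 (unadjusted p = 0.0524). A fall of TAP2 that passed under DHT and not under vehicle is therefore not shown to differ between them. B2M differed by -0.24 ± 0.19 on the log2 scale, and HLA-B, HLA-C and HLA-F by -0.05, -0.01 and -0.03.

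Levels between genes were compared per kilobase of the longest principal transcript in GENCODE 29. With non-specific siRNA and vehicle the order was B2M at 176 ± 21.1 CPM per kilobase, HLA-C at 139.5 ± 15.7, TAPBP at 101 ± 5.74, HLA-B at 43.4 ± 7.02, TAP1 at 18.9 ± 2.00, HLA-E at 11.6 ± 1.45, TAP2 at 8.13 ± 0.964, NLRC5 at 1.82 ± 0.306 and HLA-F at 1.20 ± 0.213, with no overlap between neighbours. With DHT and non-specific siRNA the order was the same, but HLA-E overlapped TAP2, and NLRC5 overlapped HLA-F. With PXN siRNA and vehicle, B2M was at 383 ± 63.3 and HLA-C at 183 ± 20.8. HLA-B, at 120.2 ± 30.2, then stood beside TAPBP at 96.2 ± 6.37 and overlapped it, and NLRC5, at 11.6 ± 1.97, stood above TAP2 at 7.17 ± 0.724. TAP1, at 29.4 ± 4.51, overlapped HLA-E at 24.2 ± 4.02 in that group. The order with PXN siRNA and DHT was the same, with TAP2 also overlapping HLA-F. The length was chosen after levels per kilobase of all annotated exons had been seen, and by that measure HLA-C leads B2M in every group, at 85.5 against 49.4 CPM per kilobase with non-specific siRNA and vehicle. HLA-E then stands above TAP1 in both groups of PXN siRNA, and the other places are kept.

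Within groups most of the 9 genes deviated together. In replicate 1, between 7 and 8 of the 9 lay above their group mean in all 4 groups, with a median log2 deviation of 0.12 to 0.26. Replicate 3 lay below the mean for 9 of 9 in both groups of non-specific siRNA, and replicate 2 for 8 and 9 of 9 in the groups of PXN siRNA. TAP2 and NLRC5 departed from this in part. In replicate 1 TAP2 lay below its group mean in every group, and NLRC5 did so in both groups of non-specific siRNA. The highest library of NLRC5 with PXN siRNA was replicate 3, and TAP2 was negatively correlated within groups with HLA-B (-0.39), HLA-C (-0.31), HLA-E (-0.27) and B2M (-0.30). After group means were taken out, the Pearson correlation over the 12 libraries was 0.98 for HLA-B with HLA-E, 0.97 for HLA-C with HLA-E, and 0.20 for HLA-B with NLRC5. With the group means left in, HLA-B and NLRC5 correlated at 0.93. By that value NLRC5 ranked only 1037 among the tested genes for HLA-B, and HLA-B ranked 1044 for NLRC5. TAPBP correlated with HLA-C at 0.42 over the 12 libraries and at 0.89 within groups. These are descriptions, with no test, over libraries of which 3 at a time share a group. Among the 5 genes outside the 9 whose pattern was most like their mean z-score over the 12 libraries were CD63, a tetraspanin of late endosomes (r = 0.989), CLDN4, a tight junction claudin (r = 0.988), the activin receptor ACVR1B (r = 0.987) and the integrin ITGA3 (r = 0.987). Group means were left in for this, so these values include the difference between the siRNAs.

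Leukocytes carry high class I levels, so their markers are given beside these results. The summed leukocyte markers measured 0.351 to 0.67 CPM with non-specific siRNA and vehicle, 0.425 to 0.535 with non-specific siRNA and DHT, 0.887 to 1.33 with PXN siRNA and vehicle, and 0.956 to 1.13 with PXN siRNA and DHT. Of the 6 markers analysed here, ITGAM was the only one with enough counts to be tested, and it was called higher (log2 fold change 2.06 ± 0.50, adjusted p = 0.00323 under vehicle, edgeR), at 0.134 and 0.56 CPM. PTPRC, the pan-leukocyte marker CD45, measured 0 to 0.0863 CPM in the 12 libraries and was at 0 in 4 of them. Summed stromal markers measured 30.0 to 40.4 CPM with non-specific siRNA and 43.8 to 52.1 CPM with PXN siRNA. COL1A1 carried that sum (20.5 against 30.4 CPM under vehicle), whereas COL3A1 (-0.80, adjusted p = 0.00327, edgeR) and LUM (-2.22, adjusted p = 0.000967) fell under vehicle. Summed endothelial markers, nearly all of it VWF, measured 12.8 to 15.0 CPM with non-specific siRNA and 14.8 to 18.6 CPM with PXN siRNA under vehicle, and 15.1 to 18.9 against 17.3 to 22.0 CPM under DHT. Summed luminal markers measured 4554 to 5279.5 CPM with non-specific siRNA and vehicle and 3611 to 4054 with PXN siRNA and vehicle, and 7440.0 to 7724 against 4206 to 4651 CPM under DHT. Basal markers stayed at or below 0.567 CPM in sum. The part of these markers in the results was not tested.

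Counts in this and the following lists stand beside 23.9% of all tested genes called higher and 26.3% lower under vehicle. Under DHT those shares were 25.0% and 26.7%. At the level of mRNA, the 2 branches of peptide supply, immunoproteasome and standard proteasome, differed in direction. Interferon-inducible immunoproteasome subunits replace standard catalytic subunits and favour peptides that class I chains can bind. Of 5 genes of this branch, 4 were higher and 0 lower with PXN siRNA under both treatments, with a median of 1.24 under vehicle and 1.22 under DHT. PSMB8 measured 1.28, 1.00 and 0.546 CPM with non-specific siRNA and vehicle and 4.27, 1.83 and 3.13 CPM with PXN siRNA and vehicle (log2 fold change 1.70 ± 0.38, adjusted p = 0.00179, edgeR). PSMB9 went from a mean of 0.82 to 2.68 CPM (1.71 ± 0.33, adjusted p = 0.000555), and PSMB10 from 2.80 to 6.60 CPM (1.24 ± 0.15, adjusted p = 9.97e-06). All of these were low beside B2M. PSME1, a subunit of the proteasome activator PA28, rose by 0.25 ± 0.08 on the log2 scale (adjusted p = 0.0145, edgeR). That call for PSME1 was lost without replicate 2 or 3 of non-specific siRNA (0.16 and 0.23, adjusted p = 0.11 and 0.0603) or replicate 3 of PXN siRNA (0.18, adjusted p = 0.109), and under DHT without any 1 of replicates 2 and 3 of non-specific siRNA and 1, 2 and 3 of PXN siRNA (0.15 to 0.23, adjusted p = 0.0553 to 0.162). PSME2, the other PA28 subunit, stood at 0.03 ± 0.05 and passed only with upper-quartile scaling (0.13, adjusted p = 0.0459, edgeR). PSMB9 lies across TAP1 on the opposite strand, and the sources used here do not give the strand setting of the counts. PSMB9 held 723 counts over the 12 libraries, fewer than TAP1 held in any 1 of them.

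All 10 standard proteasome genes listed were lower with PXN siRNA under both treatments, at medians of -0.40 and -0.38, and 9 of 10 were with upper-quartile scaling. PSMB5, a catalytic subunit that PSMB8 replaces, measured 164, 155 and 167 CPM with non-specific siRNA and vehicle and 107, 122 and 111 CPM with PXN siRNA and vehicle. It fell by 0.52 ± 0.06 on the log2 scale (adjusted p = 1.02e-05, edgeR). PSMB6, which PSMB9 replaces, fell by 0.56 ± 0.06 (adjusted p = 2.57e-06). PSMA7 fell by 0.51 ± 0.06 and PSMD1, of the regulatory cap, by 0.42 ± 0.06. These falls were all under 1.5-fold, and 0 of the 10 passed a test against that fold. PSMB5 remained far above PSMB8, at a mean of 113 against 3.08 CPM with PXN siRNA and vehicle.

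**Figure D5:**
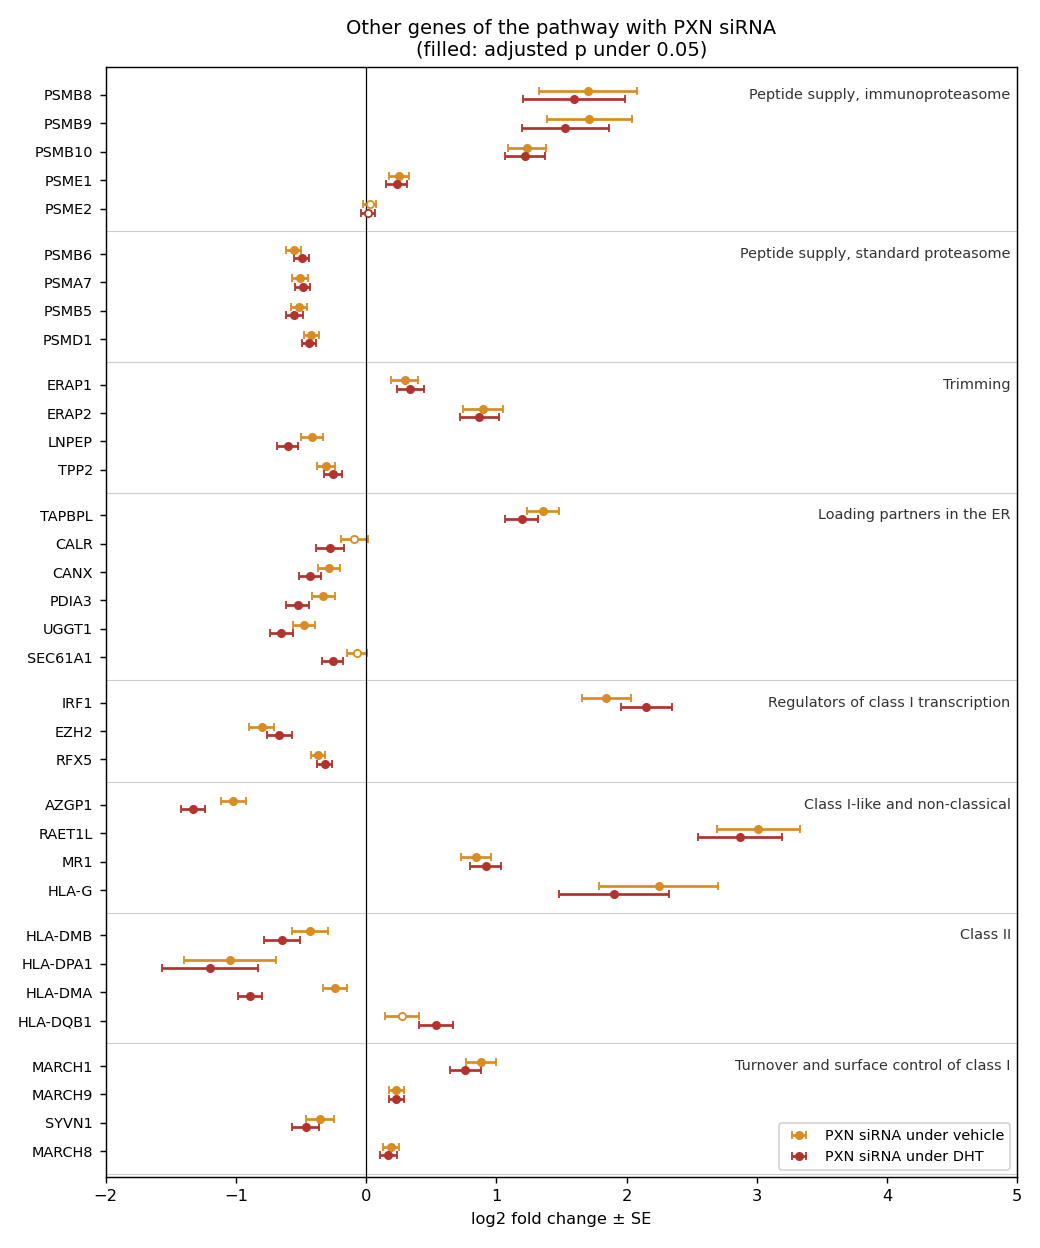
Log2 fold change ± SE with PXN siRNA under vehicle and under DHT for genes named from each list around the class I pathway; filled points passed an adjusted p under 0.05 in edgeR's quasi-likelihood test. Immunoproteasome genes PSMB8, PSMB9 and PSMB10 lie at 1.22 to 1.71 and standard proteasome genes between -0.56 and -0.42.

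Peptides that enter the endoplasmic reticulum are trimmed there by ERAP1 and ERAP2. Of 4 trimming genes 2 were higher and 2 lower under both treatments. Over all tested genes the shares were 23.9% higher and 26.3% lower under vehicle, and 25.0% and 26.7% under DHT. ERAP2 rose from 2.69 to 5.01 CPM under vehicle (0.90 ± 0.15, adjusted p = 0.000213, edgeR) and ERAP1 from 41.5 to 50.9 CPM (0.30 ± 0.10, adjusted p = 0.026). The ERAP1 call was lost without replicate 2 or 3 of non-specific siRNA (0.27 and 0.20, adjusted p = 0.0798 and 0.161, edgeR) or replicate 1 or 2 of PXN siRNA (0.20 and 0.30, adjusted p = 0.164 and 0.0537). Under DHT it was lost without replicate 2 or 3 of non-specific siRNA (0.30 and 0.25, adjusted p = 0.0587 and 0.0941) or replicate 1 of PXN siRNA (0.23, adjusted p = 0.106). LNPEP, an endosomal aminopeptidase linked to cross-presentation, fell by 0.42 ± 0.08 on the log2 scale, and TPP2, a cytosolic peptidase, by 0.31 ± 0.07. Under DHT the TPP2 call (-0.25, adjusted p = 0.00705, edgeR) was lost with upper-quartile scaling (-0.15, adjusted p = 0.0777), which left 1 of the 4 lower. With DHT and non-specific siRNA LNPEP rose by 0.45 ± 0.08 (adjusted p = 0.00442, edgeR).

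Tapasin's relative TAPBPL (TAPBPR), a peptide editor that acts outside the loading complex, parted from tapasin. It measured 14.3, 12.6 and 10.1 CPM with non-specific siRNA and vehicle and 35.4, 28.6 and 30.9 CPM with PXN siRNA and vehicle, with no overlap (1.36 ± 0.13, adjusted p = 9.34e-07, edgeR), and its log2 fold change was 1.19 ± 0.12 under DHT. Among the 6 loading partners it was the only one higher. The others are folding factors of general use: 3 of the 6 were lower under vehicle and 5 of the 6 under DHT. UGGT1, the glucosyltransferase that also proofreads class I folding, fell by 0.48 ± 0.09 under vehicle and 0.65 ± 0.09 under DHT, and PDIA3 (ERp57) by 0.33 ± 0.09 and 0.53 ± 0.09. Calnexin (CANX) fell by 0.28 ± 0.09 and 0.43 ± 0.09. The chaperone calreticulin (CALR) and SEC61A1, of the translocon, stood at -0.09 and -0.07 under vehicle, not called, and at -0.28 and -0.26 under DHT, where both were called. The CALR call was lost without replicate 1 of non-specific siRNA (-0.23, adjusted p = 0.103, edgeR) or replicate 1 or 3 of PXN siRNA (-0.29 and -0.23, adjusted p = 0.0635 and 0.115). With upper-quartile scaling 2 were lower under vehicle and 3 under DHT, and without the libraries numbered 1 the counts were 1 and 4.

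Regulators of class I transcription did not move as a group. Over all tested genes 23.9% were called higher and 26.3% lower under vehicle, and 25.0% and 26.7% under DHT. Of the 16 regulators, 4 were higher and 6 lower under vehicle, and 3 were higher and 4 lower under DHT. Their medians were -0.02 and -0.01. With upper-quartile scaling 7 were higher and 4 lower under vehicle and 7 higher and 2 lower under DHT. IRF1, the interferon-induced factor that binds the ISRE, rose most. It measured 6.55, 6.70 and 5.003 CPM with non-specific siRNA and vehicle and 24.1, 18.7 and 22.7 CPM with PXN siRNA and vehicle (1.84 ± 0.19, adjusted p = 2.39e-06, edgeR), and rose by 2.15 ± 0.19 under DHT. RFX5, a subunit of the factor that holds the X box, fell by 0.37 ± 0.05, from 163 to 126 CPM. EZH2, the methyltransferase of the Polycomb complex that is known to silence class I genes in some cancers, fell by 0.80 ± 0.10 under vehicle and 0.67 ± 0.10 under DHT, from 31.0 to 17.8 CPM under vehicle.

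Transcripts of type I and III interferons were at the edge of detection. Of the 7 listed ligands, IFNB1, IFNL1, IFNL2 and IFNL3 were analysed here, and none of these 4 had enough counts to be tested. IFNB1 held 0 to 1 counts in each library of non-specific siRNA and 1 to 15 in each of PXN siRNA, and IFNL1 held 0 to 4 and 0 to 8. With no filter on low counts, edgeR called IFNB1 higher with PXN siRNA under vehicle (adjusted p = 0.0108) and under DHT (adjusted p = 0.012). It called IFNL1 (adjusted p = 0.0304) and IFNL3 (adjusted p = 0.0171) higher under DHT, not under vehicle (adjusted p = 0.887 and 0.211). Under DHT, IFNL1 held 0, 2 and 0 counts with non-specific siRNA and 3, 8 and 6 with PXN siRNA. With non-specific siRNA and vehicle it held 3, 4 and 3. IFNL3 under DHT held 0, 0 and 1 counts against 0, 9 and 10, so its groups overlapped. Calls at so few counts are not firm. With no filter, the interaction was not called for any of these 3 genes (adjusted p = 1.0, edgeR).

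Class I-like molecules, which are read by natural killer and innate-like T cells, moved singly. Of 14 listed, 12 were tested, and 4 were higher and 2 lower with PXN siRNA under both treatments. The shares of all tested genes were 23.9% higher and 26.3% lower under vehicle, and 25.0% and 26.7% under DHT. RAET1L (ULBP6), a ligand of the NKG2D receptor, measured 0.787, 1.03 and 0.546 CPM with non-specific siRNA and vehicle and 7.76, 5.03 and 6.40 CPM with PXN siRNA and vehicle (3.01 ± 0.32, adjusted p = 3.15e-06, edgeR). RAET1G was higher as well (0.92, adjusted p = 0.0345, edgeR), while MICA, ULBP1, ULBP2 and ULBP3, of the same receptor, stood at 0.07, -0.18, 0.10 and 0.11 and were not called. HLA-G, a non-classical chain best known from the placenta, went from 0.182 to 0.865 CPM (2.25 ± 0.46, adjusted p = 0.000911, edgeR). RAET1G and HLA-G stayed near the limit of detection, and with a filter of at least 1 CPM on the mean 2 genes of the list were higher. MR1, which presents vitamin B metabolites, rose from 18.3 to 32.8 CPM (0.84 ± 0.11, adjusted p = 2.99e-05, edgeR). AZGP1, a secreted class I-like protein and known androgen target, fell from 20.7 to 10.2 CPM (-1.02 ± 0.10, adjusted p = 1.08e-06, edgeR), and HFE also fell. Of 5 class I pseudogenes, 2 were called higher under both treatments, HLA-H (0.97 ± 0.23 under vehicle) and HLA-L (1.26 ± 0.21). The other 3, HLA-J, HLA-K and HLA-V, were not called. The sequence of such pseudogenes is close to that of the heavy chains, and reads shared with those may count here.

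Class II genes, which depend on CIITA, a relative of NLRC5, did not rise together. Of 12 listed genes 5 were tested; under vehicle 0 were higher and 3 lower, and under DHT 1 was higher and 3 lower. CIITA measured 1.20 CPM under vehicle with non-specific siRNA, against 1.21 CPM with PXN siRNA (0.00 ± 0.29, adjusted p = 0.995, edgeR). The peptide editors HLA-DMA and HLA-DMB were at 11.4 against 9.66 CPM and 6.54 against 4.84 CPM under vehicle, falls of 0.24 ± 0.09 (adjusted p = 0.04, edgeR) and 0.43 ± 0.14 (adjusted p = 0.0176). HLA-DPA1, a class II alpha chain, was near the limit of detection at 0.484 against 0.232 CPM (-1.04 ± 0.35, adjusted p = 0.0226, edgeR). The count under vehicle was 1 lower and 1 higher with upper-quartile scaling, and 1 lower by DESeq2's Wald test, without the libraries numbered 1, and without replicate 1 of non-specific siRNA or replicate 1 or 3 of PXN siRNA. With DHT and non-specific siRNA HLA-DMA rose from 11.4 to 17.0 CPM (0.57 ± 0.09, adjusted p = 0.00178, edgeR). The effect of PXN siRNA on HLA-DMA differed between treatments by -0.65 ± 0.13, which the interaction test did not call (adjusted p = 0.251, edgeR), whereas DESeq2's Wald test did (-0.66, adjusted p = 0.00859), as did edgeR with the replicate-number block (-0.65, adjusted p = 0.0218) or without replicate 1 of non-specific siRNA with DHT (-0.71, adjusted p = 0.0403). HLA-DQB1, a class II beta chain, rose under DHT from 12.3 to 17.8 CPM (0.54 ± 0.13, adjusted p = 0.0033, edgeR). HLA-DQB1 under vehicle was called only with the replicate-number block (0.27, adjusted p = 0.0052, edgeR) or upper-quartile scaling.

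The last group, listed for turnover and surface control of class I chains, split. Over all tested genes 23.9% were called higher and 26.3% lower under vehicle, and 25.0% and 26.7% under DHT. Of the 11 genes of this group, 4 were higher and 3 lower under vehicle, and the same numbers under DHT. The 4 higher genes were the same, whereas SYVN1 and UBE2J1 were lower under both, WWP2 under vehicle alone (-0.17, adjusted p = 0.0268, edgeR, against 0.03 under DHT) and HM13, a signal peptide peptidase, under DHT alone (-0.26, adjusted p = 0.0122, against -0.14 under vehicle). The interaction test called none of the 11, so neither is shown to differ between treatments. MARCH1, a membrane ubiquitin ligase, rose from 8.18 to 15.1 CPM (0.88 ± 0.12, adjusted p = 2.55e-05, edgeR), and MARCH9, a ligase known to act on class I, by 0.23 ± 0.06 (adjusted p = 0.00504). MARCH8, of the same family, stood at 0.19 (adjusted p = 0.0211, edgeR), and its call was lost without replicate 2 or 3 of non-specific siRNA or replicate 1 or 3 of PXN siRNA (0.15 to 0.17, adjusted p = 0.0701 to 0.116). Under DHT MARCH8 stood at 0.17 (adjusted p = 0.035, edgeR), and leaving out any 1 library but replicate 2 of PXN siRNA with DHT ended that call (0.11 to 0.18, adjusted p = 0.0624 to 0.225), as did DESeq2's Wald test (adjusted p = 0.0529), no filter on low counts (0.195) and a fit of only the groups compared (0.0569). SYVN1 (HRD1), a ligase of degradation from the endoplasmic reticulum, fell by 0.35 ± 0.11 on the log2 scale (adjusted p = 0.012, edgeR), and the E2 enzyme UBE2J1 by 0.35 ± 0.12 (adjusted p = 0.0266). With upper-quartile scaling the count under vehicle was 7 higher and 0 lower, so the direction of this group depends on the scaling. Without the libraries numbered 1 it was 2 higher and 2 lower. It was 2 higher without replicate 2 or 3 of non-specific siRNA or replicate 1 of PXN siRNA, and under DHT without replicate 3 of non-specific siRNA or replicate 1 of PXN siRNA. Under vehicle 1 was lower without replicate 3 of non-specific siRNA or replicate 1 of PXN siRNA. With DHT and non-specific siRNA UBE2J1 rose by 0.54 ± 0.12 (adjusted p = 0.0159, edgeR) and WWP2, another ubiquitin ligase, fell by 0.30 ± 0.06 (adjusted p = 0.0075).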

How the data were processed

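RNA-seq counts of 12 LNCaP libraries, 3 in each of 4 groups, were analysed, and every library took its group from its own label. A column kit gave the RNA and a stranded mRNA kit the libraries, per the labels' protocols. The table deposited by the authors holds whole-number counts for each gene symbol. They were made with Trimmomatic 0.32, STAR 2.4.2a and featureCounts of Subread 1.5.0p3 on GRCh38, per the submitters' processing notes. For the annotation, the strand setting and the treatment of reads that match several genes, the entry is the same: not given in the sources used here. This bears most on the heavy chains and on genes that overlap on opposite strands. Replicates of a group differed by more than sampling noise (chi-square per gene 6.53 to 28.2), and all 12 were kept.

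The software was edgeR 4.0.16, with limma 3.58.1 and DESeq2 1.42.0 for alternatives, run under R 4.3.3. Genes passing filterByExpr (18468 of 36137) entered with TMM scaling into a quasi-likelihood model of 4 group means with 8 residual degrees of freedom, with Benjamini-Hochberg adjustment over all tested genes and calls below 0.05. CPM use the TMM-scaled library size. Each SE was derived from the test, as the absolute log2 fold change over the root of F. The code was tested on simulated data with known changes. The 9 genes and the lists around them were chosen with earlier results of these data known, so a list's direction is no independent evidence. Named from each list were up to 4 tested genes with the smallest p for PXN siRNA under vehicle, or all tested genes of a list of up to 6. RAET1G, MICA, the ULBP genes, HFE, UBE2J1, WWP2, HM13, CIITA, KLK3, ITGAM, PTPRC, COL1A1, COL3A1, LUM, VWF and the interferon genes were named after their values were seen. For likeness the rule took 5 genes. Of the genes these rules take, 1 from the lists and 1 for likeness are not reported here.

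Groups carry the same replicate numbers, and the labels do not say what a number marks. Same-numbered libraries were therefore checked for a pairing: the correlation of their deviations from the group means was 0.121 to 0.210 between the siRNAs under vehicle, 0.145 to 0.383 between the treatments with non-specific siRNA, and 0.1004 to 0.307 between the treatments with PXN siRNA. All exceeded 0.1, the cut used here for a possible pairing. Between the siRNAs under DHT it was 0.0769 to 0.284, below that cut at its lowest. The other comparisons together link all groups, so a pairing cannot hold for them and be absent there. The cut therefore does not settle whether the numbers pair libraries. The main model has no replicate block, its p-values are unpaired, and the block is given as an alternative. Positions and lengths came from GENCODE 29, promoters from RefSeq (GRCh38.p14), and figures were made in Python 3.11.15.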

Additional observations from a re-analysis of the deposited data

How the results depend on the processing

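In 23 alternatives for each pairwise comparison, no called value of the 9 genes changed sign. Of 207 recomputed values per comparison, 200 kept their call for PXN siRNA under vehicle, 199 for PXN siRNA under DHT, 206 for DHT with non-specific siRNA and 207 for DHT with PXN siRNA. The exceptions beside those of HLA-C, TAP2 and TAPBP given with their values came from stricter thresholds: HLA-C under an adjusted p of 0.01, and HLA-C, TAP1, B2M (under DHT) and TAP2 (under DHT) in a test against a fold of 1.5, which left 4 of the 9 higher and 0 lower under DHT. Leaving out 1 library gave 0 to 1 of the 9 lower for PXN siRNA under vehicle, and 0 to 1 lower for DHT with non-specific siRNA. With the replicate block no call of the 9 changed in any comparison, and among list genes named here it changed those of HLA-DQB1 (under vehicle), ERAP1, MR1, HLA-DMB, HLA-DQB1 and SYVN1 (DHT with non-specific siRNA), ERAP1 and LNPEP (DHT with PXN siRNA) and HLA-DMA (interaction). Where the numbers were not taken to pair the groups, the block moved the regulators called higher with PXN siRNA under DHT from 3 to 5.

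Counts over all tested genes moved more. Against a fold of 1.5, PXN siRNA called 1087 higher and 870 lower under vehicle and 1304 higher and 930 lower under DHT. DHT with non-specific siRNA called 1140 higher and 1096 lower with the replicate block, 267 and 139 at an adjusted p of 0.01, 69 and 10 against a fold of 1.5, and 239 lower with only the groups compared. Leaving out 1 library gave 290 to 683 higher and 124 to 678 lower. DHT with PXN siRNA called 169 higher and 19 lower with no filter, 131 and 14 by DESeq2's Wald test, 249 and 97 with the block, 106 and 28 without the libraries numbered 1, 18 higher with only the groups compared, 11 higher at 0.01, 10 higher against a fold of 1.5 and 1 lower with upper-quartile scaling. Leaving out 1 library gave 10 to 71 higher and 0 to 13 lower. The interaction called 2 higher and 33 lower with no filter, 1 and 29 by DESeq2's Wald test, 18 and 40 with the block, 2 and 20 without the libraries numbered 1, and 1 lower with DESeq2's size factors. Leaving out 1 library gave 0 to 10 higher and 0 to 35 lower. The cause of these shifts was not tested. At 34321000 to 38633456 counts a library, depth limits the genes given here at a few CPM or less, among them HLA-F.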
